A study of Homo sapiens with 8 samples.

Results

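The nuclear-encoded subunits of the oxidative phosphorylation machinery were examined in MCF10A and DCIS.COM cells with and without *MALINC1* overexpression. They were taken by gene symbol, as all genes whose names begin with NDUFA, NDUFB, NDUFC, NDUFS or NDUFV and a number, UQCR, ATP5 or COX4 to COX8, together with *SDHA*, *SDHB*, *SDHC* and *SDHD*, without pseudogenes and assembly factors. This gave 81 of the 13842 genes measured. Of these, 36 belong to complex I, 4 to complex II, 8 to complex III, 13 to complex IV and 17 to complex V. The other 3 are caught by their names but are no subunits: *NDUFA4L2* is a paralogue of the complex IV subunit *NDUFA4*, *ATP5IF1* encodes the inhibitor of the ATP synthase, and *NDUFA6-DT* is a non-coding transcript that starts beside *NDUFA6* on the other strand. *COX4I2*, *COX6A2*, *COX7A1*, *COX7B2* and *COX8C*, the tissue-restricted isoforms, are not analysed here.

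MCF10A is a non-malignant breast epithelial cell line, and DCIS.COM is a cell line that models ductal carcinoma in situ. Each was stably transduced with the pLOC lentiviral vector, either empty (pLOC-empty) or carrying the long non-coding RNA *MALINC1* (pLOC-*MALINC1*), and selected with blasticidin, so the controls also carry a vector and went through selection. RNA-seq was performed on 2 libraries in each of the 4 groups, 8 in all. The sources used here do not say whether the 2 libraries of a group came from separate cultures, and p-values then measure only the spread between these samples, which may be technical. MCF10A was grown with EGF, hydrocortisone, insulin and cholera toxin beside horse serum, whereas DCIS.COM was grown with horse serum alone, so that cell line and medium cannot be told apart in any comparison between the lines.

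Oxidative phosphorylation is carried out in the inner mitochondrial membrane. Complex I oxidises NADH and complex II oxidises succinate, both pass electrons through ubiquinone to complex III, and cytochrome c carries them on to complex IV, which reduces oxygen to water. Complexes I, III and IV pump protons, and the ATP synthase, complex V, uses the resulting gradient to make ATP. Most subunits are encoded in the nucleus and imported. A small set of core subunits is encoded by mitochondrial DNA, so that complexes I, III, IV and V draw on both genomes and complex II on the nucleus only. Genes of the nuclear subunits are known to carry promoter sites for the factors NRF1, the ETS factor NRF2/GABP, YY1 and CREB, with the PGC-1 coactivators acting through some of them.

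The promoters of the members were read from RefSeq (GRCh38.p14), as 250 bases before to 50 bases after the transcription start. Of the 81 members, 69 had an entry. On both strands, 4 short motifs were searched: GCGCANGCG (the core of an NRF1 site, where N is any base), CCGGAAG (ETS), AAGATGGC (YY1) and TGACGTCA (CREB). The NRF1 core was found in 30.4% of the members' promoters and in 14.7% of the 10704 promoters of genes in the data, and the ETS motif in 29.0% and 19.2%. The YY1 motif was found in 17.4% against 5.33%, and the CREB motif in 7.25% against 3.31%. Such a match is a description of the letters and was not tested as a binding site. Below, 4 promoters are printed 5′ to 3′ in lower case, with matches in capitals: both catalytic subunits of complex II, which differed between the lines in opposite directions, the c-ring gene with the largest line difference in complex V, and the member that fell most with *MALINC1*. They lie at chr5:218070-218369 (plus strand, *SDHA*), chr1:17053983-17054282 (minus strand, *SDHB*), chr17:48892537-48892836 (plus strand, *ATP5MC1*) and chr12:57240713-57241012 (minus strand, *NDUFA4L2*).
*SDHA*: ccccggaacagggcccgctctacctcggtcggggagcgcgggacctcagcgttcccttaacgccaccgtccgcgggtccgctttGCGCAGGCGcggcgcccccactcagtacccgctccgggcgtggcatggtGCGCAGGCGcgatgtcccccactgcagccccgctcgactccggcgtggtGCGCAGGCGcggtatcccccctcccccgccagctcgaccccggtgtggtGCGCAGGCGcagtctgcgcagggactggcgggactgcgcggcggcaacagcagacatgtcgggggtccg
*SDHB*: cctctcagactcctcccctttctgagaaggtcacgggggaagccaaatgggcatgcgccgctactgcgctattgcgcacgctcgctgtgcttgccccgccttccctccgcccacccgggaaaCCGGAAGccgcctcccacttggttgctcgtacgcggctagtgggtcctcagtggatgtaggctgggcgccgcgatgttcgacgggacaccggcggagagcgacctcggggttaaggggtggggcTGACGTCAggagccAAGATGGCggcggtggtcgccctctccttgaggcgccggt
*ATP5MC1*: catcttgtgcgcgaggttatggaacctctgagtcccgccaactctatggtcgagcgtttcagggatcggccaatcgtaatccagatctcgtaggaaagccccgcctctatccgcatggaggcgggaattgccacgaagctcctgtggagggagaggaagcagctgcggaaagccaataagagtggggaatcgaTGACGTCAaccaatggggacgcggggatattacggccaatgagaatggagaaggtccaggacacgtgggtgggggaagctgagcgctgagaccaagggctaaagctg
*NDUFA4L2*: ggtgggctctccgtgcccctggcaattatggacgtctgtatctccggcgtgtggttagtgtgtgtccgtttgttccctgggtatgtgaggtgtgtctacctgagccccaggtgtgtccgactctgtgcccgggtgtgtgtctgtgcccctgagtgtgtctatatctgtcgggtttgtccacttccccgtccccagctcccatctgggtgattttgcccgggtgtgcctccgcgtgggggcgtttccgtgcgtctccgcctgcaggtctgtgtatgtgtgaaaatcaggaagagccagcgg
In *SDHA* the NRF1 core occurred 4 times, with 49 bases from one start to the next. In *SDHB* an ETS motif lay 128 bases before the start, and a CREB and a YY1 motif lay at the start itself. *ATP5MC1* held a CREB motif only, and none of the 4 motifs was in the *NDUFA4L2* window.

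As a check of the labels, *MALINC1* was measured at 1.07 and 1.58 CPM in MCF10A pLOC-empty and at 13.3 and 11.8 CPM in MCF10A pLOC-*MALINC1*. In DCIS.COM it was at 1.42 and 1.22 CPM with the empty vector and at 24.5 and 19.2 CPM with *MALINC1*. Every library thus matched the vector in its label, while these values do not check the cell line. CPM is the usual count scaled to library size, here with the scaling the authors deposited. The libraries held 20604377 to 37550457 reads on genes. Keratinocyte and myoepithelial genes were abundant in MCF10A (10 of 10 basal epithelial markers in the data, 29961 to 40459 CPM in sum) and less so in DCIS.COM (5189 to 5764 CPM). With the empty vector, *TP63*, *EPCAM* and *ITGA6* of these markers were higher in DCIS.COM, by 11.4, 4.5 and 1.6-fold. By contrast, the 4 of 5 luminal markers in the data summed to 1279 to 1638 CPM in MCF10A and 3214 to 3472 CPM in DCIS.COM. Nearly all of this sum was *KRT8* and *KRT18*. With the empty vector, *ESR1* averaged 1.84 against 2.29 CPM and *GATA3* 6.86 against 7.54 CPM (limma, adjusted p = 0.0778 and 0.541). With *MALINC1*, *ESR1* was higher in DCIS.COM by 1.92-fold. Of the markers of other cell types, 2 of 5 leukocyte, 1 of 3 endothelial, 1 of 5 fibroblast and 0 of 4 muscle genes were in the data, with at most 15.9 CPM in sum. One library stood apart in the mitochondrial genome, as replicate 1 of DCIS.COM pLOC-*MALINC1* had 0.229% of its reads on the 13 mitochondrial subunit genes against 0.114% in replicate 2.

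The first question was how abundant the members were. All 81 passed the filter on low expression (0.5 CPM in at least 2 libraries), as did all 13842 genes in the data. Of the 81, 78 had between 552 and 23885 reads in each library. The exceptions were *NDUFA4L2*, *NDUFA6-DT* and *COX6B2*. Per kilobase of the annotated transcript, which could be computed for 77 members, *ATP5F1B* (the catalytic beta subunit of the ATP synthase) had the highest level in MCF10A pLOC-empty, at 333 CPM per kb. The next were *COX6A1* at 301 and *COX4I1* at 261 CPM per kb, both nuclear subunits of complex IV. The subunits of complex II were lower, from 34.4 CPM per kb for *SDHB* to 57.8 for *SDHA*. *COX6B1* stood at 221 CPM per kb against 1.6 for its testis-type isoform *COX6B2*. These levels depend on the annotated length and are given as a description.

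Summed over the 81 members, the levels separated the DCIS.COM empty-vector libraries from all others. MCF10A had 7271 and 7168 CPM with the empty vector and 7100 and 7309 CPM with *MALINC1*. DCIS.COM had 9462 and 9433 CPM with the empty vector and 7859 and 7983 CPM with *MALINC1*. The same order was seen in the share of reads, which does not depend on the authors' scaling: 0.678 to 0.693% in the 4 MCF10A libraries, 0.942 and 0.958% in DCIS.COM pLOC-empty, and 0.845 and 0.883% in DCIS.COM pLOC-*MALINC1*. As these are bulk libraries, fewer cells of a kind and less RNA per cell cannot be told apart.

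**Figure D1:**
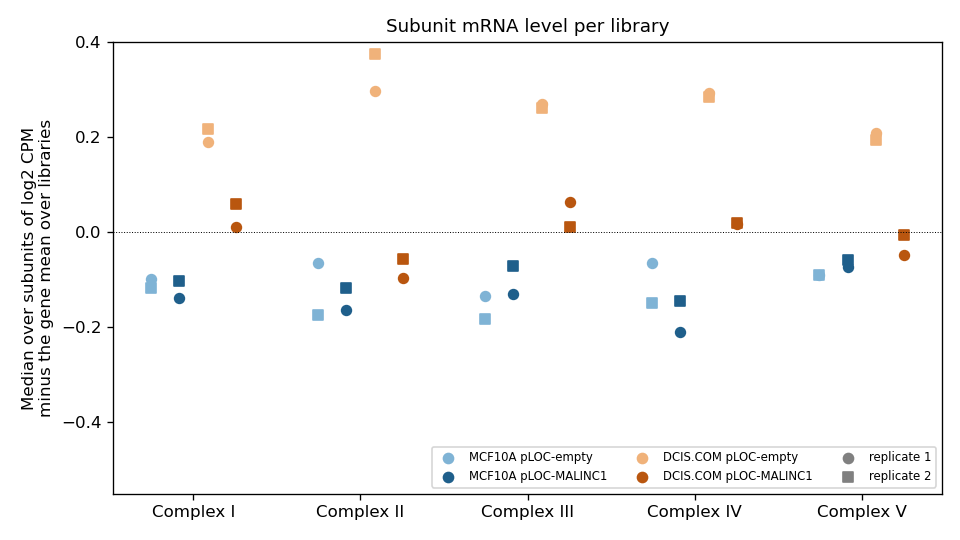
Level of the subunits in each library by complex: the median over the subunits of log2 CPM minus the gene's mean over all 8 libraries, with colours for the 4 groups and shapes for the replicates. In every complex both DCIS.COM pLOC-empty libraries are highest (0.19 to 0.38), and the DCIS.COM pLOC-*MALINC1* libraries lie between -0.10 and 0.06.

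The effect of *MALINC1* in DCIS.COM was examined first, since it moved most members. With *MALINC1*, 49 of 81 members fell and 0 rose (limma, adjusted p under 0.01), against 16.7% of all 13842 genes lower and 16.4% higher. At an unadjusted p under 0.05 there were also 0 members higher, and 0 in voom, the alternative fitted to reads. The falls were small. The median log2 change of the members was -0.20, a fold of 0.871, with a median standard error of 0.042, while the median over all genes was 0.01. Only *NDUFA4L2* passed the study's limit of more than 2-fold, against 4.53% of all genes. Among genes of at least 5 CPM, where changes of this size are easier to detect, 49 members and 2250 of 11465 genes were lower.

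The count depended on the scaling. With library sizes taken as total reads on genes, 23 members were lower and 1 higher, and the median over all genes was itself 0.13. With RN7SL reads left out of these totals, 44 of the 49 members were also called lower, and the median over all genes was 0.04. Relative to the median of all genes, the members stood at -0.21 under the authors' scaling and at -0.21 under total reads. A change of library size moves all genes alike, so this value is nearly fixed by construction. It is therefore no test of how the result depends on the scaling. By complex, the members lower under total reads were 6 of 36 in complex I, 1 of 4 in II, 4 of 8 in III, 6 of 13 in IV and 4 of 17 in V. Without the trend of the variance, 31 were lower. The share of all genes called in a single comparison is not given for total reads or without the trend. These counts, and such counts below, are therefore not set against a background share.

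Complex II, the entry point for electrons from succinate, fell as a whole in DCIS.COM (4 of 4). *SDHC*, one of its membrane anchors, was at 75.1 and 78.9 CPM with the empty vector and at 53.6 and 53.6 CPM with *MALINC1*. Its log2 change was -0.52 (standard error 0.046, adjusted p = 1.99e-06), the largest fall of any subunit. *SDHD*, the other anchor, went from 85.9 and 91.2 CPM to 69.7 and 73.6 CPM (log2 change -0.31, standard error 0.05, adjusted p = 0.000337). The groups did not overlap for either anchor. The catalytic subunits fell less: *SDHA*, the flavoprotein, had a log2 change of -0.23 (adjusted p = 0.000117), and *SDHB*, the iron-sulfur subunit, had one of -0.24 (adjusted p = 0.00235). Under total reads, only *SDHC* of the 4 passed the test.

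Complex III, which takes electrons from ubiquinol, fell in 7 of 8 subunits. Both core proteins were among them. *UQCRC2* was at 195 and 199 CPM with the empty vector and at 150 and 154 CPM with *MALINC1* (log2 change -0.38, standard error 0.033, adjusted p = 2.02e-06). *UQCRC1* was at 265 and 263 CPM and then at 206 and 213 CPM (log2 change -0.33, adjusted p = 2.51e-05). The Rieske iron-sulfur protein, *UQCRFS1*, fell by 0.14 on the log2 scale (adjusted p = 0.00573), and its log2 change under total reads was -0.02 (adjusted p = 0.678). *UQCR11* alone was not called, with a log2 change of -0.05 (adjusted p = 0.389).

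In complex IV, the cytochrome c oxidase, 9 of 13 members fell. The largest falls were those of *COX6C*, from 86.4 and 84.2 CPM to 64.1 and 63.1 CPM (log2 change -0.42, standard error 0.041, adjusted p = 4.59e-06), and of *COX5B*, from 120 and 116 CPM to 88.1 and 90.9 CPM (log2 change -0.40, standard error 0.054, adjusted p = 7.25e-05). Both sets of libraries were clear of each other. Among the ubiquitous forms of subunits that have tissue isoforms, *COX7A2* fell by 0.36, *COX8A* by 0.29, *COX4I1* by 0.23 and *COX6A1* by 0.13 on the log2 scale, the last with an adjusted p of 0.00735 that was lost under total reads (0.879). *NDUFA4*, now counted with complex IV, fell by 0.27 (adjusted p = 0.000919), and was not called under total reads (log2 change -0.15, adjusted p = 0.0289). *COX6B1* and *COX7B* had log2 changes of -0.10 and -0.13 with adjusted p of 0.029 and 0.0194. *COX7A2L*, a factor that joins complexes III and IV, was at -0.11 (adjusted p = 0.0612).

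The ATP synthase was split by its parts. In the catalytic F1 head, 4 of 5 subunits fell, and in the peripheral stalk, 4 of 4 did. In the c-ring 1 of 3 and among the other membrane subunits 1 of 5 fell; the difference between the parts was not tested. *ATP5F1B*, the most abundant member, was at 911 and 893 CPM with the empty vector and at 677 and 686 CPM with *MALINC1* (log2 change -0.40, standard error 0.035, adjusted p = 1.51e-06). *ATP5F1A*, the alpha subunit, went from 735 and 743 CPM to 556 and 568 CPM (log2 change -0.40, standard error 0.033, adjusted p = 1.3e-06). In each case the 2 *MALINC1* libraries lay below both controls. The 3 genes *ATP5MC1*, *ATP5MC2* and *ATP5MC3* encode the same mature c subunit, and of these *ATP5MC3* fell by 0.36 on the log2 scale (adjusted p = 2.61e-05), while *ATP5MC1* had a log2 change of -0.14 (adjusted p = 0.0137) and *ATP5MC2* one of -0.06 (adjusted p = 0.314).

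Complex I, the NADH dehydrogenase, had the smallest share of falls, 17 of 36, and a median log2 change of -0.15. Of the conserved core subunits 4 of 7 fell, and of the accessory subunits 13 of 29. Within the latter, 8 of 11 NDUFB subunits fell and 3 of 12 NDUFA subunits. *NDUFB1* was at 33.7 and 34.7 CPM with the empty vector and at 24.7 and 26.3 CPM with *MALINC1* (log2 change -0.43, standard error 0.055, adjusted p = 5.23e-05). *NDUFB5* went from 87.7 and 91.9 CPM to 66.3 and 67.2 CPM (log2 change -0.43, standard error 0.049, adjusted p = 1.75e-05). Both belong to the membrane arm, and neither showed any overlap between groups. Among the core subunits, *NDUFV1*, which binds NADH, had the largest change, -0.36 (adjusted p = 3.52e-06).

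Motif content was also read by this outcome. The NRF1 core was in 30.0% of the 40 promoters of members that fell and in 31% of the 29 others, the ETS motif in 30.0% and 27.6%, the YY1 motif in 17.5% and 17.2% and the CREB motif in 7.50% and 6.90%. These shares are descriptions without a test.

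**Figure D2:**
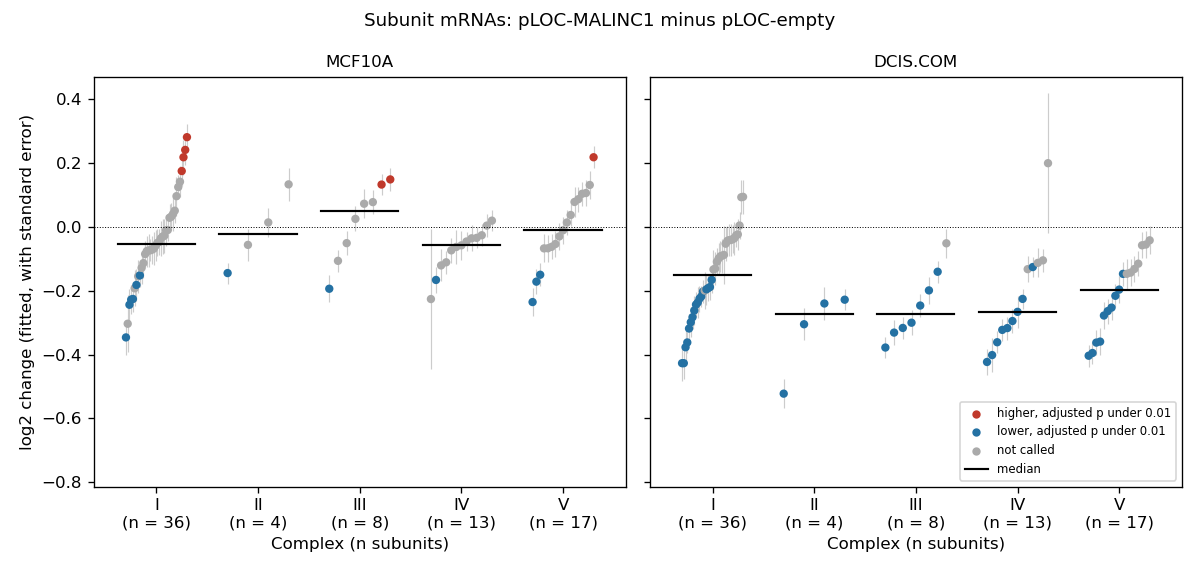
Log2 change of each subunit between pLOC-*MALINC1* and pLOC-empty with its standard error, by complex, in MCF10A (left) and DCIS.COM (right). Red and blue points passed the test as higher or lower, grey points did not, and black lines are medians, which lie between -0.15 and -0.27 in DCIS.COM and between -0.06 and 0.05 in MCF10A.

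Outside the subunits proper, *NDUFA4L2* had the largest change. It encodes a relative of NDUFA4 that is known as a hypoxia-inducible gene, and it lies on the minus strand of chromosome 12 (57628686 to 57634498 in GRCh37). It was at 13.3 and 13.8 CPM in DCIS.COM pLOC-empty and at 1.91 and 1.84 CPM in DCIS.COM pLOC-*MALINC1*. The reads behind these values were 283 and 287 against 63 and 60. Its log2 change was -2.85 (standard error 0.26, adjusted p = 2.38e-06). In MCF10A it was near the limit of detection, with 6 and 2 reads with the empty vector and 7 and 5 with *MALINC1*, so that its fitted change there depends on the prior count. *ATP5IF1* went from 78.9 and 75 CPM to 55.4 and 56.6 CPM in DCIS.COM, a log2 change of -0.46 (standard error 0.045, adjusted p = 5.08e-06). *NDUFA6-DT* had 1.61 and 1.79 CPM against 1.76 and 2.08 CPM and was not called (adjusted p = 0.56).

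In MCF10A, *MALINC1* moved fewer members and in both directions. Of 81 members, 7 rose and 14 fell, against 21.5% and 18.1% of all genes, and 0 changed by more than 2-fold, against 5.50%. As shares, 8.64% and 17.3% of members were called. The median log2 change was -0.05. The balance of directions shifted with the scaling, to 3 higher and 18 lower under quantile normalization, 5 and 18 under median-ratio scaling and 3 and 19 when RN7SL reads were left out of the library size. It also rested on single libraries: 4 rose and 5 fell without replicate 2 of MCF10A pLOC-empty, 4 and 8 without its replicate 1, 4 and 8 without replicate 1 of MCF10A pLOC-*MALINC1*, and 2 and 9 without its replicate 2. Without the variance trend 2 rose and 2 fell, and in a fit of the MCF10A libraries alone 1 and 2.

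The members that rose included *ATP5F1B*, from 595 and 577 CPM with the empty vector to 666 and 698 CPM with *MALINC1* (log2 change 0.22, standard error 0.035, adjusted p = 0.000211). *NDUFB9*, an accessory subunit of complex I, went from 55.4 and 58.9 CPM to 68.9 and 69.9 CPM (log2 change 0.28, standard error 0.04, adjusted p = 8.99e-05). *NDUFS4*, needed for the final steps of complex I assembly, went from 37.9 and 36.9 CPM to 43 and 45.4 CPM (log2 change 0.24, standard error 0.048, adjusted p = 0.00106). None of these groups overlapped. In complex III, *UQCRFS1* and *UQCRC2* rose by 0.15 and 0.13 on the log2 scale (adjusted p = 0.00344 and 0.00541), and both calls were lost under total reads (adjusted p = 0.0172 and 0.0349).

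The largest fall among subunits in MCF10A was that of *NDUFB1*, from 32.4 and 33.7 CPM to 26.5 and 25.5 CPM (log2 change -0.35, standard error 0.055, adjusted p = 0.00023). *NDUFA6* fell by 0.24 on the log2 scale (adjusted p = 0.00158). Beside it, *NDUFA6-DT* fell by 0.996 on the log2 scale (adjusted p = 0.00264), from 1.8 and 2.2 CPM to 0.824 and 1.2 CPM, which rests on 27 to 50 reads per library. The strand setting of the counting is not given, so its reads cannot be told apart from those of any gene it overlaps. *SDHA* fell by 0.14, *UQCR10* by 0.19 and *COX7B* by 0.17 on the log2 scale (adjusted p = 0.00272, 0.00216 and 0.00481). In complex V, *ATP5MC2* and *ATP5PD*, a subunit of the stalk, fell by 0.24 and 0.17 (adjusted p = 0.000567 and 0.00276), and *ATP5IF1* fell by 0.20 (adjusted p = 0.00295). Of *SDHB*, *SDHC* and *SDHD*, none was called, with log2 changes of 0.13, 0.01 and -0.06.

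The 2 vector effects come from separate libraries and were compared by the interaction. In 31 of 81 members the effect of *MALINC1* was lower in DCIS.COM than in MCF10A and in 1 it was higher, against 20.3% and 15.6% of all genes. Under total reads these counts were 12 and 3, with a median over all genes of 0.12, and without the variance trend 15 and 0. Leaving out any 1 library gave 22 to 28 lower and 0 or 1 higher. By complex, 7 of 36 members of complex I, 2 of 4 of complex II, 6 of 8 of complex III, 7 of 13 of complex IV and 7 of 17 of complex V were lower. The largest differences among subunits were those of *ATP5F1B*, -0.62 (standard error 0.049, adjusted p = 6.58e-07), and *NDUFS4*, -0.54 (standard error 0.067, adjusted p = 3.39e-05). Both rose in MCF10A and fell in DCIS.COM, as did *NDUFB9*, *UQCRC2* and *UQCRFS1*, 5 of 81 members against 581 of all 13842 genes. By contrast, 8 of 81 members fell in both lines, against 3.97% of all genes: *NDUFA1*, *NDUFB1*, *NDUFB2*, *SDHA*, *UQCR10*, *ATP5F1E*, *ATP5PD* and *ATP5IF1*. Under total reads, *ATP5F1B* alone was called in opposite directions (2.20% of all genes), and *NDUFB1*, *ATP5PD* and *ATP5IF1* fell in both lines (2.43%). *NDUFA4L2* had a difference of -3.17 (standard error 0.36), which depends on the prior count as above, and *NDUFA6-DT* was the member with a higher effect in DCIS.COM, by 1.17 (standard error 0.32, adjusted p = 0.00892).

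The lines were then compared with each other under either vector. With the empty vector, 57 of 81 members were higher in DCIS.COM than in MCF10A and 7 were lower, against 37.9% and 36.0% of all genes, and 4 passed 2-fold, against 28.6%. The median log2 difference was 0.38, and it was 0.03 over all genes. With *MALINC1* in both lines, 40 were higher and 10 lower, against 35.7% and 37.2%, and 3 passed 2-fold, against 26.6%. The median was 0.12. Under total reads the counts with *MALINC1* were 58 and 2, with a median of 0.20 over all genes, and under quantile normalization 49 and 4. Without replicate 1 of DCIS.COM pLOC-*MALINC1* 38 were higher and 6 lower, and without replicate 2 of MCF10A pLOC-*MALINC1* 37 and 6. The gap between the 2 line differences is by construction the interaction given above. These 2 comparisons share no library with each other, and 37 of 81 members were higher in DCIS.COM in both, against 28.4% of all genes. Each of them shares a control or treated group with the vector effects.

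**Figure D3:**
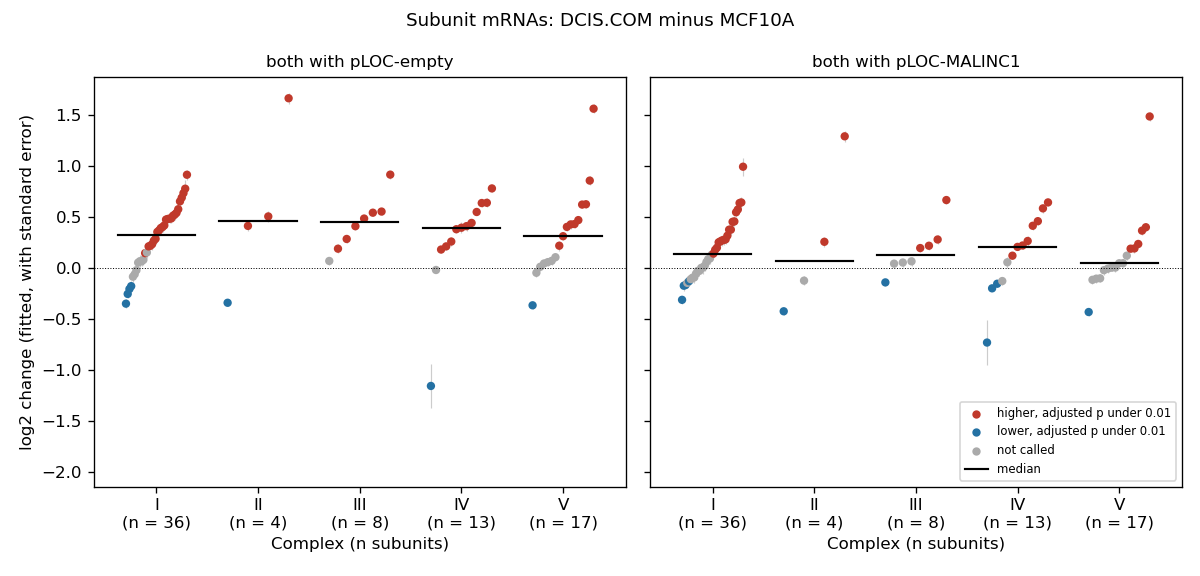
Log2 difference of each subunit between DCIS.COM and MCF10A with its standard error, by complex, with both lines carrying pLOC-empty (left) or pLOC-*MALINC1* (right). The highest points in complex II are *SDHB*, at 1.66 and 1.29, and those in complex V are *ATP5MC1*, at 1.56 and 1.48, and black lines are medians.

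The largest line differences in subunits were in complexes II and V. *SDHB* (chromosome 1, 17345159 to 17380527 in GRCh37, minus strand) was at 36.6 and 33.2 CPM in MCF10A pLOC-empty and at 111.8 and 108.7 CPM in DCIS.COM pLOC-empty. The log2 difference was 1.66 (standard error 0.052, adjusted p = 1.12e-11), and with *MALINC1* it was 1.29 (37 and 39.5 CPM against 94.6 and 92.1 CPM, adjusted p = 1.5e-10). Every DCIS.COM library was far above every MCF10A library. Its partner *SDHA* (chromosome 5, 218418 to 257197, plus strand), with which it forms the catalytic part of complex II, went the other way. *SDHA* was at 153 and 158 CPM in MCF10A and at 122.96 and 122.18 CPM in DCIS.COM with the empty vector (log2 difference -0.34, standard error 0.033, adjusted p = 6.19e-07), and with *MALINC1* at 142 and 140 CPM against 104 and 105 CPM (log2 difference -0.43). *SDHA* has near-identical pseudogene copies, and how reads shared with them were counted is not given. Per kilobase, *SDHB* was at 34.4 CPM per kb and *SDHA* at 57.8 in MCF10A pLOC-empty, and at 109 and 45.5 in DCIS.COM pLOC-empty, so that the order of the catalytic subunits was turned. The anchors *SDHC* and *SDHD* were higher in DCIS.COM by 0.41 and 0.50 with the empty vector (adjusted p = 3.22e-06 and 9.78e-07), and with *MALINC1* the differences were -0.13 (adjusted p = 0.0232, not called, and 0.07 under total reads) and 0.25 (adjusted p = 0.000468).

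*ATP5MC1* (chromosome 17, 46970127 to 46973233, plus strand), one of the c-ring genes, was at 50.8 and 47.5 CPM in MCF10A pLOC-empty and at 144 and 145 CPM in DCIS.COM pLOC-empty (log2 difference 1.56, standard error 0.042, adjusted p = 2.76e-12). With *MALINC1* it was at 46.4 and 47.4 CPM against 133 and 129 CPM (log2 difference 1.48). *ATP5MC3* differed by 0.85 and 0.36 and *ATP5MC2* by 0.01 (adjusted p = 0.856) and 0.19 (adjusted p = 0.00126). The c-ring genes thus held different ranks in the lines. Per kilobase, *ATP5MC2* was highest in MCF10A pLOC-empty (143 CPM per kb against 76.1 for *ATP5MC1* and 53.2 for *ATP5MC3*), and *ATP5MC1* was highest in DCIS.COM pLOC-empty (224 against 144 for *ATP5MC2* and 96.1 for *ATP5MC3*). *ATP5F1B*, in contrast, was higher in DCIS.COM by 0.62 with the empty vector (adjusted p = 2.96e-09) and differed by 0.00 with *MALINC1* (adjusted p = 0.996). *ATP5ME* was higher by 0.42 and 0.40. *ATP5F1E*, the epsilon subunit, was lower in DCIS.COM by 0.37 and 0.43 under the 2 vectors.

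**Figure D4:**
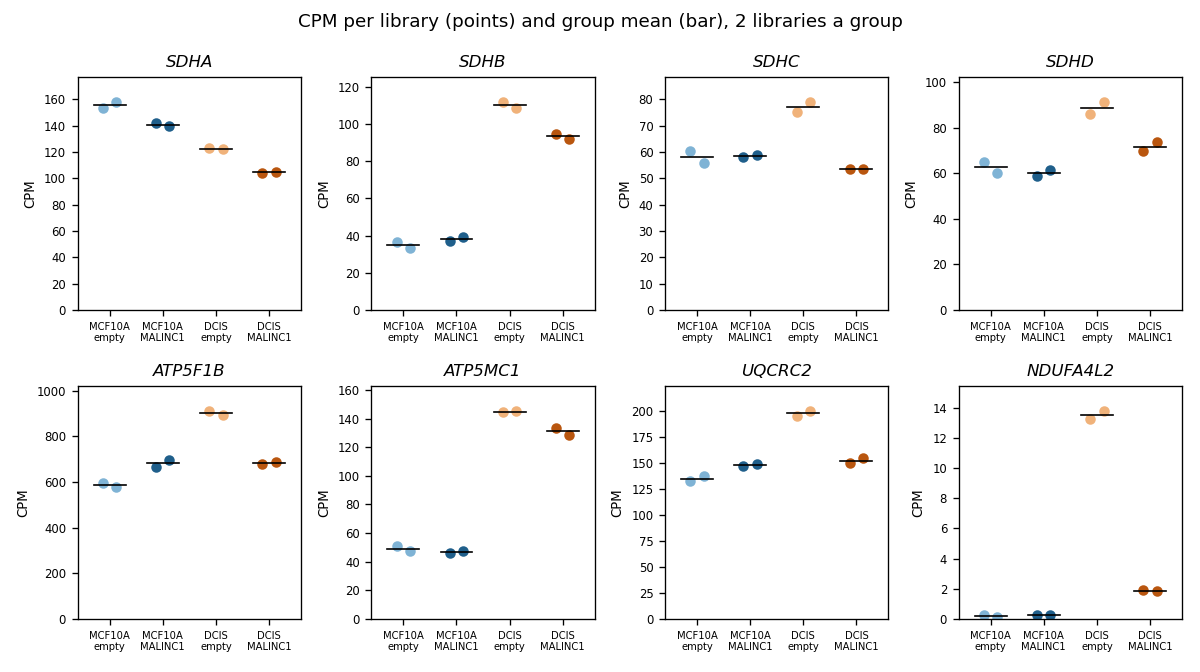
CPM of the 4 subunits of complex II, of *ATP5F1B*, *ATP5MC1*, *UQCRC2* and *NDUFA4L2* in each of the 8 libraries (points) with group means (bars). Every axis starts at 0. *SDHB* and *ATP5MC1* are high in all DCIS.COM libraries, while *NDUFA4L2* is high only in the 2 DCIS.COM pLOC-empty libraries, at 13.3 and 13.8 CPM.

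In the proton-pumping complexes, the line differences were led by a few subunits. *NDUFB5* was higher in DCIS.COM by 0.91 with the empty vector (49.1 and 46.4 CPM against 87.7 and 91.9 CPM) and by 0.54 with *MALINC1*. *NDUFA2* differed by 0.77 and 0.99 and *NDUFA3* by 0.52 and 0.64 (adjusted p between 1.26e-07 and 4.11e-06), without overlap of the lines. In complex III, *UQCRQ* was at 94.8 and 91.4 CPM against 175 and 175 CPM with the empty vector (log2 difference 0.91) and differed by 0.66 with *MALINC1*. *UQCRC2* differed by 0.55 and 0.04 (adjusted p = 0.286 for the latter), and *UQCR10* by 0.28 and 0.28. In complex IV, *COX5A* differed by 0.78 and 0.46, *COX7A2L* by 0.64 and 0.58 and *COX6B1* by 0.63 and 0.64.

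Few members were lower in DCIS.COM. *NDUFB2* was lower by 0.35 and 0.32 on the log2 scale and *NDUFA13* by 0.26 and 0.13 (adjusted p = 1.99e-05 and 0.00401). With *MALINC1*, both calls were lost under total reads, where the median over all genes was 0.20, and the log2 differences were -0.12 and 0.07. *COX6B2* was at 2.69 and 2.33 CPM in MCF10A pLOC-empty and at 0.957 and 1.31 CPM in DCIS.COM pLOC-empty, a log2 difference of -1.16 (standard error 0.22, adjusted p = 0.000333) that rests on 19 to 76 reads per library. With *MALINC1* in both lines, *COX4I1*, *NDUFC2*, *UQCRB* and *COX7A2* were lower by 0.20, 0.18, 0.14 and 0.16. Under total reads none of these 4 was called, and the sign turned for *NDUFC2*, *UQCRB* and *COX7A2*. Of the 10 members lower with *MALINC1*, *SDHA* and *ATP5F1E* were also called lower under total reads. *COX7A2* had been higher by 0.18 with the empty vector (adjusted p = 0.000397). *NDUFA4L2* was at 0.278 and 0.16 CPM in MCF10A pLOC-empty, against the DCIS.COM values given above. It passed the filter on low expression through the DCIS.COM libraries alone, so its line difference is a description, although it is counted among the members higher in DCIS.COM and past 2-fold.

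Other genes of the pathway were examined as 7 lists that were chosen with earlier results of these data known. In DCIS.COM with *MALINC1*, 10 of 19 genes of the TCA cycle and pyruvate entry, which deliver NADH and succinate to complexes I and II, fell and 0 rose (also 0 at an unadjusted p under 0.05 and 0 in voom), against 16.7% and 16.4% of all genes. The largest fall was that of *PC*, pyruvate carboxylase, with a log2 change of -0.43 (adjusted p = 4.25e-05). Under total reads, 2 of the list were lower and 1 higher. Its median relative to that of all genes was -0.17 with either scaling, a value that a change of library size leaves nearly fixed. Of the electron carriers and ubiquinone synthesis genes, 7 of 19 fell and 2 rose, with *COQ10B* at -0.44 and *DHODH* at 0.51. Of the 53 assembly factors, 6 fell (11.3%, a smaller share than of all genes) and 2 rose, with *COX14* at -0.53 and *BCS1L* at 0.33. Of 5 subunits and associated genes with other names (*CYC1*, *NDUFAB1*, *C15orf48*, *HIGD1A* and *HIGD2A*), 4 fell. *C15orf48*, nearly without reads in DCIS.COM, was not called. Among those that fell were *CYC1* (cytochrome c1, -0.26) and *NDUFAB1* (the acyl carrier subunit of complex I, -0.23), with the largest fall in *HIGD2A* (-0.41). Of the 78 mitochondrial ribosomal proteins, which translate the mitochondrial subunits, 13 fell (16.7%, the share also found over all genes) and 3 rose, from *MRPL33* at -0.73 to *MRPL9* at 0.28. Under total reads 18 of these ribosomal proteins were higher and 4 lower. Their median relative to all genes was -0.04 with either scaling, again nearly fixed by construction.

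In MCF10A the mitochondrial ribosome moved up instead. There, 42 of 78 genes rose and 0 fell (2 at an unadjusted p under 0.05, 0 in voom), with a median log2 change of 0.20, against 21.5% of all genes higher. *MRPS12* rose most, from 31.9 and 30.4 CPM to 46.2 and 47.5 CPM (log2 change 0.59, adjusted p = 8.05e-07). The count was 36 under total reads, 25 without the variance trend, 20 in a fit of the MCF10A libraries alone, and 27 when either replicate 2 of MCF10A pLOC-*MALINC1* or replicate 1 of MCF10A pLOC-empty was left out. The difference between the lines was called in 38 of the 78, all with the effect lower in DCIS.COM. Over all genes it was lower in 20.3% and higher in 15.6%. Of the assembly factors 11 of 53 rose (20.8%, near the 21.5% of all genes) and 1 fell, with *NDUFAF4* at 0.99 (adjusted p = 3.24e-06) and *PET100* at -0.30. Of the carriers 6 of 19 rose (31.6%) and 1 fell (5.26%), with *PDSS1* at 0.57 and *COQ2* at -0.40. In the TCA cycle 6 of 19 rose (31.6%) and 2 fell (10.5%, against 18.1% of all genes). There *IDH3A* was at 0.49 and *IDH2* at -0.90 (110 and 110 CPM against 60.3 and 57.3 CPM, adjusted p = 3.53e-08). Of the subunits and associated genes with other names 4 of 5 rose, with *C15orf48*, an alternative to NDUFA4, at 0.95 (21.6 and 24.2 CPM against 48.1 and 40.2 CPM). In DCIS.COM *C15orf48* had 0, 0, 2 and 1 reads, and *HIGD2A* was the gene that fell in MCF10A, by 0.36.

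Of the 19 regulators of mitochondrial biogenesis, 10 rose and 0 fell in MCF10A (0 at an unadjusted p under 0.05 and 0 in voom), against 21.5% and 18.1% of all genes. *TWNK*, the mitochondrial DNA helicase, rose from 18.3 and 16.7 CPM to 34.8 and 35.7 CPM (log2 change 1.01, standard error 0.079, adjusted p = 5.37e-07) and passed 2-fold. In DCIS.COM, 4 rose and 4 fell (21.1% each), near the 16.4% and 16.7% of all genes. *PPARGC1A*, which encodes the coactivator PGC-1 alpha, was at 21.4 and 21.2 CPM with the empty vector and at 4.88 and 5.21 CPM with *MALINC1* (log2 change -2.08, standard error 0.23, adjusted p = 1.56e-05). In MCF10A it had 3, 1, 1 and 1 reads. *PPRC1*, a related coactivator, rose by 0.65 in MCF10A and by 0.50 in DCIS.COM.

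**Figure D5:**
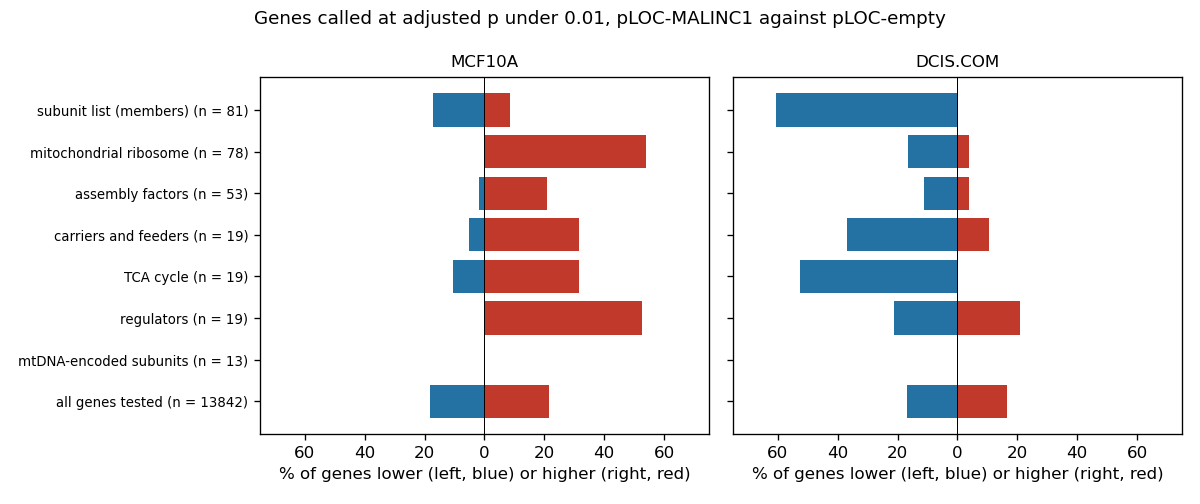
Percent of the genes of each list that were higher (right) or lower (left) with *MALINC1* at an adjusted p under 0.01, in MCF10A and in DCIS.COM, beside all genes tested. The members are lower in 49 of 81 in DCIS.COM. In MCF10A the ribosomal list (42 of 78 genes) and the regulators (10 of 19) have the largest shares higher among the lists shown.

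The 13 subunits encoded by mitochondrial DNA had no call in either vector effect (0 higher and 0 lower in limma). At an unadjusted p under 0.05 there were 3 higher in DCIS.COM, where voom called 1, and 0 in the other directions. Their summed level was 1257 and 1271 CPM in MCF10A pLOC-empty, 947 and 977 CPM in MCF10A pLOC-*MALINC1* and 1032 and 958 CPM in DCIS.COM pLOC-empty. In DCIS.COM pLOC-*MALINC1* it was 2127 CPM in replicate 1 and 1030 CPM in replicate 2, so the median log2 change in DCIS.COM was -0.27 with 2 lower without replicate 1, and 0.71 with 9 higher without replicate 2. Together these genes held 0.0904 to 0.229% of the reads per library, and how mitochondrial reads were counted is not given. Between the lines, 8 of 13 were higher and 1 lower in DCIS.COM with the empty vector, against 37.9% and 36.0% of all genes. Their summed level given above was lower in DCIS.COM there, so the count and the sum went in opposite directions. With *MALINC1*, 12 were higher and 0 lower (0 lower also at an unadjusted p under 0.05 and in voom), against 35.7% and 37.2%. The nuclear subunits did not follow replicate 1 of DCIS.COM pLOC-*MALINC1*. The median log2 change of the members in DCIS.COM was -0.20 without it and -0.21 without replicate 2.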

How the data were processed

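RNA-seq libraries (76 nt paired-end, 2 per group in 4 groups) were deposited by the authors as 1 table of normalized log2 CPM. According to the methods, reads were aligned to hg19 with Rsubread, and the authors counted them on UCSC known genes with featureCounts and normalized them with edgeR. The versions, the strand setting and the filter are not given in the sources used here. The values carry a prior count of 2, and whole reads were recovered from them (100% within 0.1 of a whole number), 20604377 to 37550457 per library. Members had a median standard error of 0.042 (log2), which comes from the spread between the libraries of a group and the empirical Bayes variances.

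A linear model of the deposited log2 CPM, with 1 mean per group over all 8 libraries, was computed in limma (version 3.58.1, under R 4.3.3), using empirical Bayes variances with an intensity trend and contrasts for *MALINC1* in each line, their difference, and the lines under each vector. Benjamini-Hochberg adjustment ran over all 13842 genes, a gene was called at an adjusted p under 0.01, and more than 2-fold was given in addition, as in the study. The authors deposited log2 CPM and not counts, and no negative binomial test was run on the recovered reads. As an alternative, the recovered reads were fitted with voom, which called 2420 genes higher and 2493 lower with *MALINC1* in DCIS.COM and 3133 and 2793 in MCF10A. The fit was tested on simulated data. Figures were drawn with matplotlib 3.10.9, and tables handled with pandas 2.3.3 under Python 3.11.15. Gene coordinates are those of GENCODE on GRCh37 and transcript lengths those of MANE Select. Promoters are from RefSeq.

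The members, the 7 lists and the tests were chosen with earlier results of these data known. The text names members past 2-fold, the 2 largest rises and falls per complex and comparison at 5 CPM or more, the 3 largest differences of the effects, all SDH genes, isoform partners and rows that are no subunits, and of each list the largest rise and fall. Further genes (*NDUFV1*, *CYC1*, *NDUFAB1* and those in lists of shared calls) were named after their values were seen. The alternatives changed the pseudocount, filter, scaling, model and threshold, and left out each library in turn. Those with total reads, and without RN7SL and mitochondrial reads, were added after seeing the data.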

Additional observations from a re-analysis of the deposited data

Results flagged for a closer look

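The difference between the effects of *MALINC1* in the 2 lines was tested by an interaction term in limma, and the counts and the largest differences are given here. The effect was lower in DCIS.COM than in MCF10A for 31 members and higher for 1. The single difference above 0 was that of *NDUFA6-DT*, at 1.17 on the log2 scale. The largest below 0 were those of *NDUFA4L2* at -3.17, *ATP5F1B* at -0.62 and *NDUFS4* at -0.54. *NDUFA4L2* had 2 to 7 reads per library in MCF10A, and *NDUFA6-DT* had 27 to 68 reads in any library. Outliers within a group were not looked for, as each group has 2 libraries.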

How the results depend on the processing

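The higher and lower counts of members in DCIS.COM (0 and 49) were 1 and 23 with total reads, and 31 were lower without the variance trend. For the difference of the effects (1 and 31), 0 were higher with the filter at 5 CPM, 3 with total reads or without RN7SL reads (with or without mitochondrial reads) and 2 at a threshold of 0.05; 12 were lower with total reads, and 0 and 15 without the trend. For MCF10A (7 and 14), 3 were higher with quantile normalization and with each library size from reads, 2 and 2 without the trend, 1 and 2 with pairs of groups fitted alone, and 13 higher at 0.05. For the lines with *MALINC1*, the 10 lower became 4 with quantile normalization, 3 without RN7SL reads, 2 with total reads or also without mitochondrial reads, 5 without the trend and 17 at 0.05. Leaving out 1 library gave 2 to 6 higher and 5 to 15 lower in MCF10A, 0 and 38 to 48 in DCIS.COM, 0 to 1 and 22 to 28 for the difference, and 35 to 40 and 6 to 10 for the lines with *MALINC1*. The line difference with the empty vector stayed within 53 to 65 higher and 5 to 7 lower in these settings. With *MALINC1* in both lines, the 3 library sizes from reads (total, without RN7SL reads, and without RN7SL and mitochondrial reads) moved all genes alike, to medians of 0.20, 0.18 and 0.19. With each of them the sign of 21 members turned, 5 of which had been called (*COX7A2*, *NDUFC2*, *NDUFS1*, *UQCRB* and *NDUFA13*). Log2 differences under the 3 sizes, in that order, were as follows for *NDUFC2* (0.023, 0.0035 and 0.0048), *UQCRB* (0.055, 0.036 and 0.037), *COX7A2* (0.042, 0.023 and 0.024) and *ATP5IF1* (0.165, 0.146 and 0.147). Of the values of single genes under the alternatives, 2239 kept their call or stayed uncalled, and some of the uncalled ones changed sign. With the direction kept, 169 lost the call and 10 gained it. The other 12 changed sign and were called before or after. The setting with no filter repeated the main fit, since every gene in the data passes the filter. The pseudocounts, median-ratio scaling and voom on reads left each count of members within 1.5 times. Counting *NDUFA4* with complex I did as well.

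The replicate numbers do not pair the libraries: deviations of same-numbered libraries had correlations of -0.089 to 0.051. With the replicate block, 6 members rose and 14 fell in MCF10A, 0 and 47 in DCIS.COM, and the difference gave 1 and 31. Depth limits the low members: *NDUFA4L2* in MCF10A, *NDUFA6-DT* and *COX6B2* rest on 76 reads or fewer in those libraries.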
